A study of Drosophila melanogaster with 2 samples.

Results

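Far intron peaks of ADD1 are binding sites that lie inside a gene, outside every annotated exon, and more than 2000 bp from the nearest annotated start of any gene. The position of a peak was taken as its summit. The list used throughout is the one the authors kept by IDR, the irreproducible discovery rate. Of its 7944 peaks, 1573 met this definition. The binding was measured by chromatin immunoprecipitation and sequencing in whole Drosophila melanogaster embryos aged 0 to 24 h. There was 1 group with 2 biological replicates, both from a single transgenic line expressing ADD1 with a C-terminal GFP tag. Nothing here can be extended to other lines. Males and females were pooled, all embryonic stages and tissues were mixed, the antibody was directed against GFP, and the sheared chromatin had a size range of 200 to 800 bp. Per the deposited descriptions, the peaks of each replicate were derived from its alignment and from a file that also served the authors' control-normalized signal. That file was not analysed here. Read numbers were not given in the sources used here, so the depth behind each peak is unknown.

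ADD1 contains an ADD domain, a zinc finger fold that in mammals occurs in ATRX and in DNA methyltransferases and reads the tail of histone H3. In flies, ADD1 is related to the part of ATRX that XNP, the fly's ATRX-like remodelling ATPase, does not carry, and it binds HP1a, a main component of heterochromatin. Long introns of fly genes, first introns above all, are known to house many of the enhancers that direct expression of developmental genes, and they also house nested genes, insulators and mobile elements. A peak in such an intron shows that tagged ADD1 was recovered there and does not name the gene it may act on.

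The letters at the summits of 11 far intron peaks are given as examples. Most were chosen because they hold a word, so they are not a typical sample of the sites. The sequences are the reference genome, Release 6 (dm6), read 5′ to 3′ on the plus strand over 101 bp centred on the summit. The first 2 are strong peaks that hold none of the 7 words described further on. The others are the strongest peak with each word, read on X, 2L, 3L, 3R and 4, and 2 further peaks with CAGTGTA, the leading word of a search without a list. Capitals mark the word named beside each site, in either strand.
CG32486 (chr3L:3060753-3060853, no word): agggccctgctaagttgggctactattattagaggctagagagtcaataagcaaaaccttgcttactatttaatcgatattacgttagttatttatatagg
Raf (chrX:2297676-2297776, no word): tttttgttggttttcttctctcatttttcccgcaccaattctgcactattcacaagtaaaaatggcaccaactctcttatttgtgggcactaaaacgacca
Raf (chrX:2300650-2300750, TGTTTAC read as GTAAACA): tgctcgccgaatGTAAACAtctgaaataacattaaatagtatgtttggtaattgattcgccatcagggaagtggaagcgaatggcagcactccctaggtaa
Eip75B (chr3L:18029737-18029837, CACACACA): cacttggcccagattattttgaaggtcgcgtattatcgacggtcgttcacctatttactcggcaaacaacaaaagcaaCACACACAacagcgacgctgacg
Tlk (chrX:3742177-3742277, CAGTGTA read as TACACTG): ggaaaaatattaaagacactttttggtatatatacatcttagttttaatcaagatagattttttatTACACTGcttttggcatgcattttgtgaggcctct
REPTOR (chr3R:24567534-24567634, CAGTGTA): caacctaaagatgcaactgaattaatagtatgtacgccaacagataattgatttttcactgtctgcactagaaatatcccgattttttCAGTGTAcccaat
RhoGAP19D (chrX:20502944-20503044, CAGTGTA read as TACACTG): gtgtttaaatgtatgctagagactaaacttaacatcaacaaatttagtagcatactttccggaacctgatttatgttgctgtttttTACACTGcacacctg
CG34417 (chrX:6549798-6549898, TACACTG and CACTGAG): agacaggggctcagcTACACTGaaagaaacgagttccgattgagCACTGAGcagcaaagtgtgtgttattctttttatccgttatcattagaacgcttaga
Evi5 (chrX:11447156-11447256, CTGTGTA read as TACACAG): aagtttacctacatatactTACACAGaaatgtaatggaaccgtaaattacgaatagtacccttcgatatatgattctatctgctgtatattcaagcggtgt
lncRNA:CR44999 and Myc (chrX:3381874-3381974, GATACCC read as GGGTATC): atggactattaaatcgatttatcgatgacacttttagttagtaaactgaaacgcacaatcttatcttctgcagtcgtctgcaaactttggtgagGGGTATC
wts (chr3R:30796864-30796964, ATAGGTG): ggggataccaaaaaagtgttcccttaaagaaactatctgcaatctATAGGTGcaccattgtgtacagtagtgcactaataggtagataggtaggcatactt

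Far intron peaks made up 19.8% of the IDR list (exact Clopper-Pearson 95% interval 18.9 to 20.7, which covers counting error only, as do all intervals below). Their share was 20.8% among the 7944 strongest peaks of replicate 1 and 17.6% among those of replicate 2. The remaining peaks were 3903 promoter peaks, with a summit within 500 bp of a start, 1176 close intron peaks up to 2000 bp from a start, 1002 intergenic peaks and 290 exon peaks. The definition draws a line through a continuous range of distances. The members nearest to it lay 2001 bp from a start in CG43658 (signal 286) and in inaE (signal 206) and 2003 bp in Hnf4 (signal 200). The nearest peaks outside it lay 1999 bp away in lbk (signal 245) and 1998 bp away in Rab11 (signal 197) and in CG32264 (signal 140).

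The peaks were weaker than those at promoters. The signal is the authors' deposited value per peak, of unstated scale, and comparisons were kept within a list. In the IDR list its median was 211 for far intron peaks, with a middle range of 157 to 322, against 222 for close intron peaks and 283 for promoter peaks. The same order held in each replicate list: the medians were 121, 133 and 160 in replicate 1 and 103, 108 and 132 in replicate 2. Far intron peaks were 13.5% of the strongest 1589 peaks of the IDR list (exact 95% interval 11.8 to 15.2) and 26.6% of the weakest 1588 (24.4 to 28.8), with 15.7%, 20.9% and 22.3% in the 3 steps of 1589 between them. There were 10 far intron peaks among the 100 strongest of the list, beside 59 promoter peaks. Far intron intervals were also narrower, with a median of 210 bp against 242 bp for promoter peaks.

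Both replicates placed a peak at nearly every far intron site when the whole replicate lists were read. A summit within 200 bp was present in both lists for 1539 members (97.8%, exact 95% interval 96.99 to 98.50), in replicate 1 only for 25 and in replicate 2 only for 9. Because the IDR list was derived from the other lists, this is no separate measure of agreement. When only the 7944 strongest peaks of each replicate counted, 65.4% of far intron peaks were present in both (62.9 to 67.7), against 75.7% of promoter peaks (74.3 to 77.0). The share was 66.0% for close intron, 67.7% for intergenic and 68.6% for exon peaks. Starting from the replicates themselves, 63.1% of the far intron peaks of replicate 1 had a partner among the strongest of replicate 2, against 79.0% of promoter peaks. In the opposite direction the order was turned round, with 74.2% of far intron peaks against 70.9% of promoter peaks. The replicate signals of the members had a Spearman rho of 0.58 and a Pearson r of 0.70 on the log10 scale, given as a description since all members come from the same pair of libraries. Each replicate signal was read at the strongest summit of that replicate within 200 bp, so neighbouring members can share one.

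**Figure D1:**
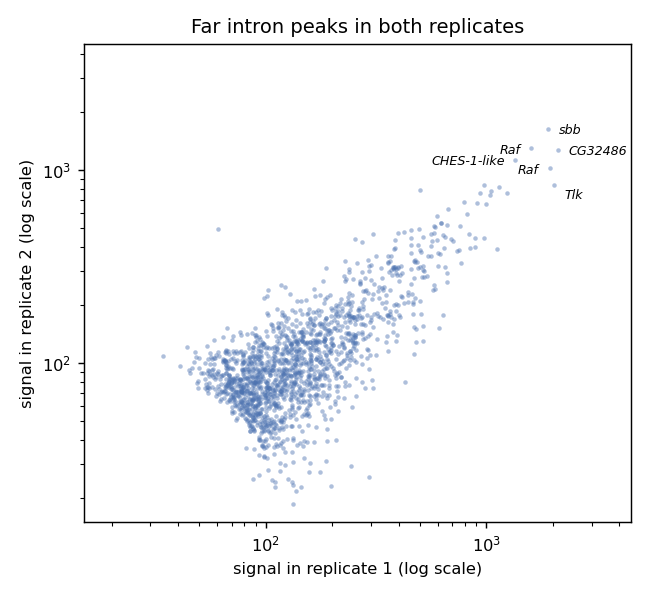
Signal of each far intron peak in replicate 1 (horizontal, log scale) and replicate 2 (vertical, log scale). Each point is 1 of the 1539 peaks present in both lists, with the signal of the strongest summit within 200 bp. The labelled peaks in sbb, CG32486, Raf, Tlk and CHES-1-like are the strongest in the IDR list and are high in both replicates, and 1 point far above the others at low replicate 1 signal lies in ush, where 2 neighbouring members have the same summit of replicate 2 as partner.

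Transcriptional regulators and kinases were among the hosts of the strongest far intron peaks. The highest signal was in sbb, which encodes a transcriptional co-repressor also known as Brakeless, 20112 bp from its nearest start (IDR signal 3524, 1904 in replicate 1 and 1642 in replicate 2). CG32486 followed with 3353 (2101 in replicate 1 and 1277 in replicate 2). Raf, the kinase that links Ras to the MAP kinase cascade, held the next 2 peaks, with 2938 (1938 and 1020 in replicates 1 and 2) and 2890 (1595 and 1299). All 4 of these peaks ranked 50 or better in each replicate.

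Tlk, which encodes the Tousled-like kinase, had a peak of 2867 (2021 in replicate 1 and 839 in replicate 2). The forkhead family gene CHES-1-like had one of 2483 (1352 and 1134 in replicates 1 and 2), and mnb, the fly DYRK1A kinase, one of 2004 (1235 and 762). Hr4, a nuclear receptor of the ecdysone response, had peaks of 1944 and 1777. A peak of 1822 lay in sequence shared by Mi-2, a nucleosome remodeller, and Su(Tpl), the fly ELL elongation factor, so its host is not unique. The other hosts among the 15 strongest were CG32264, Evi5, CG8745, lili and trx, the last a histone methyltransferase of the Trithorax group. The peak in trx differed most between the replicates of these 15 by rank, at 1121 (rank 108) in replicate 1 and 391 (rank 431) in replicate 2. On 2L the strongest member was in S, which encodes the Egfr pathway protein Star, with 1459. In 11 of the 15 the summit lay in a first intron.

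The far intron sequence of the genome was occupied less densely than the rest in the IDR list and in each replicate, but not in the joint list of 30000 peaks. It made up 41.4 Mb of 133.6 Mb without gaps (31.0%), and it held 38.02 far intron peaks per Mb (39.96 in replicate 1 and 33.87 in replicate 2), against 69.0 peaks per Mb elsewhere. The share of peaks over the share of sequence was 0.640, and in the joint list it was 1.01. Within introns the density fell with distance from a start. It was 63.9 summits per Mb at 2000 to 3000 bp, 43.9 at 5000 to 10000 bp, 27.7 at 10000 to 20000 bp and 16.9 at 20000 to 50000 bp, and in the 3.73 Mb of intron further than 50000 bp it was 0.804, from 3 peaks. Below the limit it was 199 per Mb within 500 bp of a start. The order was the same in each replicate. Repeat-rich sequence was not set aside in this comparison by distance. Genes with much far intron sequence, such as Myo81F (1929 kb) and Pzl (699 kb), held no far intron peak of the IDR list. Their part in the fall with distance was not tested. The members lay at a median of 5125 bp from a start, with a middle range of 3175 to 8658 bp, while the median base of far intron sequence lay at 7999 bp. The nearest start belonged to the host in 1047 members (66.6%) and only to another gene in 526 (33.4%).

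**Figure D2:**
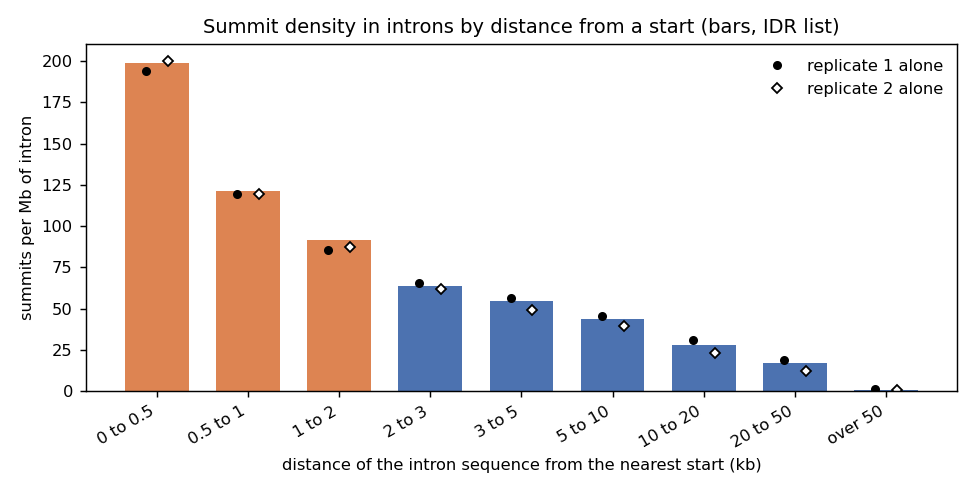
Summits per Mb of intron sequence (vertical) by distance of that sequence from the nearest annotated start in kb (horizontal); bars are the IDR list, blue beyond 2 kb and orange below, circles replicate 1 alone and diamonds replicate 2 alone. Density fell at each step in the IDR list, to 0.804 per Mb beyond 50 kb, and at each step in both replicates. Repeat-rich sequence was not set aside.

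First introns held most of the peaks. The summit of 968 members (61.5%, exact 95% interval 59.1 to 64.0) was in the first intron of at least 1 transcript, although such introns were 37.6% of the far intron sequence. The density was 62.3 peaks per Mb in first introns against 23.4 in other introns. It was 64.0 against 25.5 in replicate 1 and 55.8 against 20.6 in replicate 2, so the gap was wider than the spread between the replicates. First introns begin at a start, and their shorter distance to one was not held equal in this comparison.

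Repeats and repeat-rich regions held few far intron peaks. Only 3 members (0.191%, exact 95% interval 0.0393 to 0.556) had their summit in an annotated mobile element, although such elements were 8.34% of the sequence, and 16.8% of members lay in soft-masked sequence, which was 24.1% of it. Reads from repeats often cannot be placed, and the authors' filter on such reads is not given in the sources used here, so its part in these low values was not tested. In windows of 100 kb with 10 to 30% soft-masked sequence there were 44.4 peaks per Mb of far intron sequence. In windows with 30 to 50% there were 5.11, from 30 peaks in 5.87 Mb.

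The arms ranged from 45.1 per Mb on X and 41.5 on 2L to 39.8 on 3L, 35.9 on 2R and 32.3 on 3R, and the order of X first and 3R last among these arms was the same in both replicates. The 11.2 Mb of far intron sequence on 3R include 1929 kb in Myo81F and 699 kb in Pzl, which held no far intron peak. The place of 3R without these genes was not tested. Chromosome 4, a small chromosome that is largely heterochromatic, stood apart with 4.66 per Mb (2.33 in replicate 1 and 9.32 in replicate 2), from 2 peaks in 0.429 Mb. Peaks of the other classes had 77.6 per Mb of remaining sequence there, against 69.0 over all arms. The 2 far intron peaks of chromosome 4 were in asRNA:CR43957, with signal 251 and a start of ci, the Hedgehog pathway factor, 2084 bp away, and in the homeodomain gene zfh2, with signal 139.

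The 1573 peaks were spread over 726 host genes. These were 16.8% of the 4333 genes that have any far intron sequence, and 349 genes (8.05%) hosted 2 or more. A gene was counted as a host when a summit fell in its span, so 88 peaks counted for 2 overlapping genes and 3 for 3. Replicate 1 alone gave 755 hosts and replicate 2 alone gave 690, of which 600 were shared, and 588 of the 726 IDR hosts (81.0%) were hosts in both. There were 377 genes with exactly 1 peak, and 89 genes with 5 or more held 36.6% of all members. Of the hosts, 97.2% were protein coding, as were 97.3% of the genes with far intron sequence and no such peak.

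Host genes were long. Their median length was 27478 bp, with a middle range of 15465 to 49468 bp, against 7272 bp for genes with far intron sequence and no far intron peak and 1656 bp for all annotated genes. Genes with 2 or more peaks had a median of 38412 bp and those with 5 or more a median of 50703 bp. Length gives a gene more far intron sequence in which a peak can fall, and so the counts were also read per Mb. The share of genes that were hosts was 3.43% under 10 kb, 19.4% at 10 to 20 kb, 39.0% at 20 to 50 kb, 57.0% at 50 to 100 kb and 53.9% over 100 kb. Per Mb of far intron sequence the order was nearly turned round, with 54.0, 63.4, 48.8, 38.7 and 15.6 peaks. Outside chromosome 4 and windows with 30% or more soft-masked sequence, a restriction chosen after these values were seen, genes over 100 kb had 25.2 peaks per Mb and genes of 10 to 20 kb had 67.1. Each replicate had its lowest density in genes over 100 kb, with 18.3 per Mb in replicate 1 and 12.9 in replicate 2.

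A host usually had a promoter peak as well. A promoter peak of the IDR list lay at 535 of the 726 hosts (73.7%, exact 95% interval 70.3 to 76.9) and at 32.7% of the genes with far intron sequence and no far intron peak (31.2 to 34.2). Among genes of 20 to 50 kb the shares were 73.9% and 41.1%, and among genes over 100 kb they were 81.3% and 41.5%. Among hosts with 5 or more peaks the share was 87.6%. In genes with a promoter peak the density was 63.0 far intron peaks per Mb, against 14.9 in genes without one. It was 65.3 against 16.2 in replicate 1 and 56.4 against 13.2 in replicate 2. Both kinds of peak come from the same libraries.

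The gene with the most far intron peaks was tara (taranis), a nuclear protein linked to the Trithorax and Polycomb groups, to cell division and to sleep. It held 19 in a gene of 34.7 kb, 1 for every 1.32 kb of its far intron sequence, and all lay in a first intron. Their IDR signals ran from 131 to 1294 with a median of 324. In replicate 1 the signals at these sites ran from 63.5 to 502 and in replicate 2 from 66.3 to 787, and both replicates held all 19. The strongest had 502 in replicate 1 and 787 in replicate 2, where the medians over all members were 124 and 93.7. The summits were 1047 bp apart at the median.

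The hosts that followed included regulators of transcription and an adhesion gene. The sbb gene and Eip75B, an ecdysone-induced nuclear receptor, held 18 each. In sbb 1 peak of 3524 stood above others with a median of 178 over all 18, while in Eip75B the signals ran from 134 to 860 with a median of 246. The adhesion gene kirre, which acts in the fusion of myoblasts, held 16 spread over 340 kb of a 394 kb gene, at 1 per 18.0 kb, and none lay in a first intron. It had 15 far intron peaks among the strongest of replicate 1 and 11 among those of replicate 2. The GATA cofactor gene ush held 13, all in first introns, with signals from 134 to 1003. The TSC22 family gene bun held 12, from 135 to 651.

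Raf held 11 and they clustered near its upstream end, with 9 of them between 2.26 and 13.3 kb from its most upstream start and the other 2 at 22.2 and 23.1 kb. Its signals had a median of 389, from 155 to 2938, and its replicate medians were 233 and 154. There were 4 genes with 10 each: rdx, an adaptor of a ubiquitin ligase that acts in Hedgehog signalling, the Ski family gene Snoo, the insulin receptor gene InR, and lncRNA:CR44999, a noncoding gene of 150 kb that overlaps Myc. The signals of InR ran from 130 to 366 with a median of 173. There were 9 each in CG3764, in Tet, which encodes a Tet family dioxygenase, and in shn, a zinc finger factor of the Dpp pathway, and 8 in Hr4, with a median signal of 505. Of the 8 genes with exactly 8 peaks, Hr4 is described because it had the highest single signal.

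**Figure D3:**
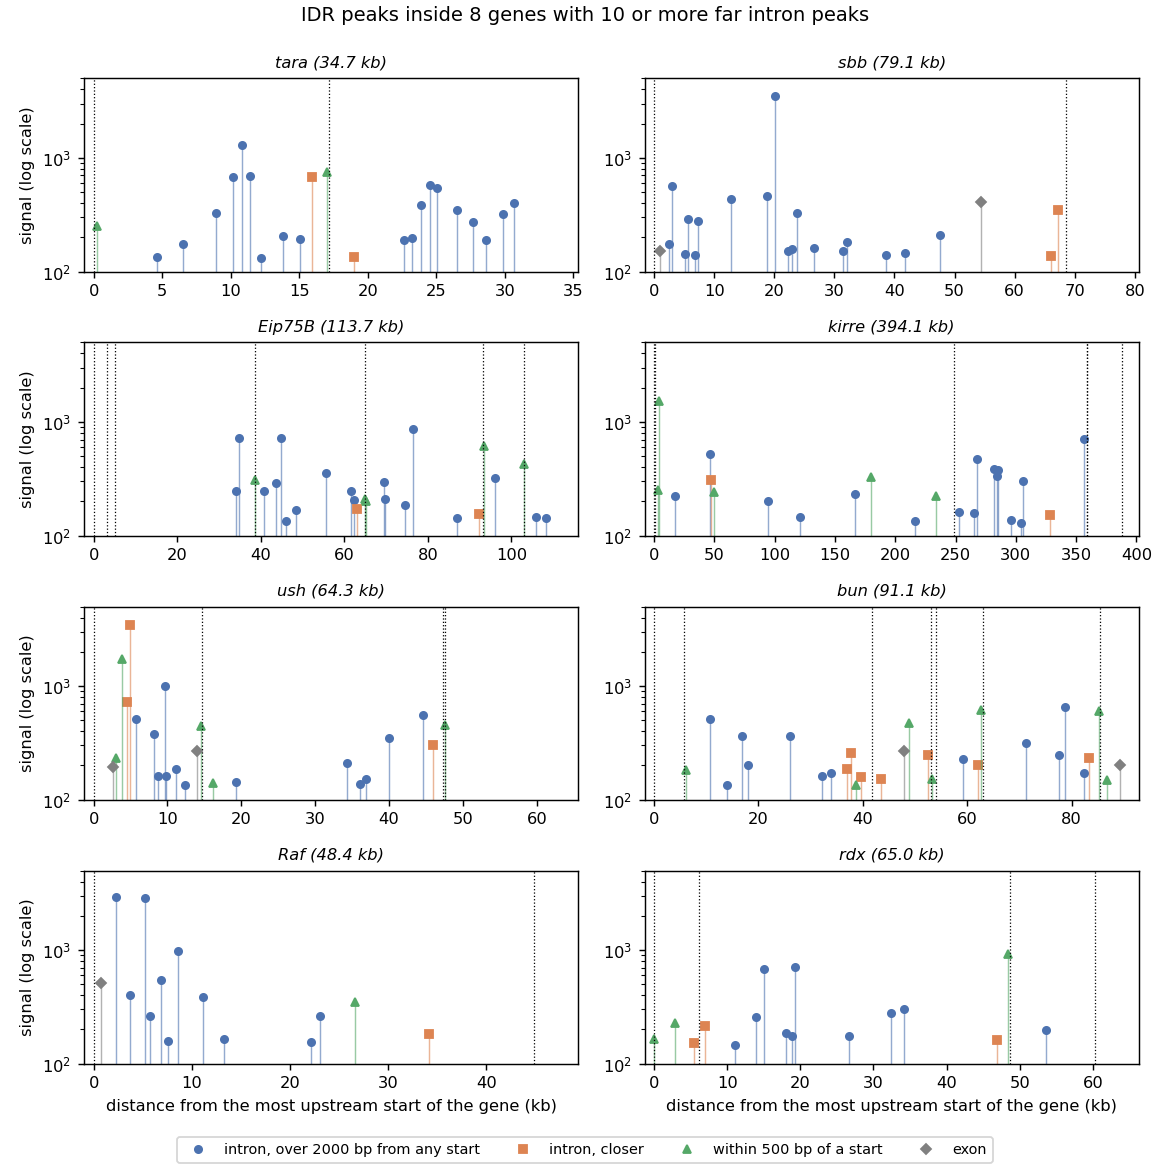
IDR peaks inside 8 genes with 10 or more far intron peaks, plotted by distance from the gene's most upstream start in kb (horizontal) and signal (vertical, log scale from 100); colours give the class of each peak and dotted lines the gene's own annotated starts. A peak marked as within 500 bp of a start can lie at a start of another gene, as in kirre and Raf, and tara, sbb and Raf each show runs of blue points between starts.

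Some shorter genes were more densely occupied than these. CG3764 held its 9 peaks in 6.33 kb of far intron sequence, 1 for every 0.704 kb, at signals from 130 to 582. The strongest peaks of each replicate included 6 far intron peaks there, and 1 of the 9 had no summit within 200 bp in replicate 1. The others with the densest sites, chosen after their values were seen among genes with 5 or more peaks, were cwo, a transcription factor of the circadian clock, with 5 peaks in 6.58 kb, tara, CHES-1-like with 5 in 7.45 kb, and REPTOR, a transcription factor acting downstream of TOR, with 5 in 8.56 kb. CG45088 and CG6191 overlap and share the same 5 peaks, as Glut4EF and CG46467 share 8.

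Many peaks lay near another, though no spacing expected from host length was computed. The 941 gaps between neighbouring summits in the same gene had a median of 2653 bp and a middle range of 1127 to 8264 bp. Gaps were counted per gene, so those shared by overlapping genes, such as Glut4EF and CG46467, entered for each gene. Another far intron summit lay within 5000 bp of 890 members (56.6%) and within 1000 bp of 345 (21.9%). The smallest gap was 199 bp, below the lower end of the fragment sizes, and 6 members shared an interval with another.

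The gene lists differed widely in density (the plot of gene lists). Hormone and stage transcription factors, which include the nuclear receptors of the ecdysone cascade, had 22 hosts among 34 genes with far intron sequence (64.7%, exact 95% interval 46.5 to 80.3) and 94.2 peaks per Mb, against 16.8% hosts and 38.3 peaks per Mb over all genes with far intron sequence. The replicates gave 101 and 86.6, against 40.1 and 34.2 over all such genes. The hosts with the most peaks were Eip75B, bun and Hr4. In fru, Eip93F and dsx, the members with the most far intron sequence and no IDR peak, there was 91.3, 47.3 and 29.8 kb of it. In fru each replicate alone held 1 far intron peak.

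Signalling genes had 26 hosts of 55 (47.3%, 33.7 to 61.2) and 82.4 peaks per Mb, with 93.0 in replicate 1 and 62.3 in replicate 2. Over all genes with far intron sequence the values were 16.8% and 38.3 per Mb (40.1 and 34.2 in replicates 1 and 2). InR led with 10 peaks. The Wnt receptor gene fz2 had 7 in the IDR list, while the 7944 strongest peaks of replicate 1 gave 7 there and those of replicate 2 gave 1. The glypican gene dally had 5. The protocadherin gene ds had none in 57.3 kb and rl, the fly ERK kinase gene, none in 44.9 kb.

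Ion channel and neurotransmitter receptor genes had the lowest density of the 8 lists. They had 12 hosts of 57 (21.1%, 11.4 to 33.9), against 16.8% over all genes with far intron sequence, each with exactly 1 peak, and 9.07 peaks per Mb, with 10.6 in replicate 1 and 6.05 in replicate 2. The strongest of these peaks was in Ih, a hyperpolarisation-gated channel gene, with signal 460, followed by Octbeta1R, an octopamine receptor gene, with 322 and the potassium channel gene Shal with 282. The potassium channel gene Sh had none in 82.5 kb, nAChRalpha3, an acetylcholine receptor subunit gene, none in 75.1 kb, and the sodium channel gene para none in 53.8 kb. Among the 16 genes of this list of 50 kb or more, 5 were hosts and the density was 5.98 per Mb, against 179 hosts and 26.2 per Mb over all 319 genes of that length (56.1% hosts). The 16 hormone and stage factors of that length had 14 hosts and 91.4 per Mb. A promoter peak lay at 24.6% of the ion channel and receptor genes and at 67.6% of the hormone and stage factors.

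Axon guidance and adhesion receptors had 20 hosts of 58 (34.5%, 22.5 to 48.1) and 24.1 peaks per Mb, with 26.1 in replicate 1 and 15.4 in replicate 2. Their 61 peaks included the 16 of kirre, and caps and Sema1a had 5 each, while dpr6, Lar and CadN had none in 121, 118 and 108 kb. Homeodomain and other developmental transcription factors had 23 hosts of 82 (28.0%, 18.7 to 39.1) and 33.8 peaks per Mb. Over all genes with far intron sequence 16.8% were hosts, at 38.3 per Mb. Of the 9 homeodomain and other developmental factor genes of 50 kb or more, 8 were hosts, at 43.8 per Mb. Over all genes of that length 56.1% were hosts, at 26.2 per Mb. The homeodomain gene hth and the Krüppel-like factor gene luna led with 7 each, and Mef2, the muscle differentiation factor, had 5. The neural homeodomain gene pros had none in 34.8 kb. In hth the count was 11 in replicate 1 and 4 in replicate 2.

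For the lists that follow, the values over all genes with far intron sequence were 16.8% hosts and 38.3 peaks per Mb. Muscle and cytoskeleton genes had 19 hosts of 51 (37.3%, 24.1 to 51.9) and 55.8 peaks per Mb. They were led by 5 peaks each in mew, an integrin alpha subunit, in scrib, a polarity protein, and in shot, a spectraplakin. RhoGEF and RhoGAP genes had 7 hosts of 30 (23.3%, 9.93 to 42.3) and 61.8 per Mb. Of their 24 peaks RhoGAP19D held 8, followed by siz with 5 and cv-c with 4. Second messenger and kinase genes had 16 hosts of 50 (32.0%, 19.5 to 46.7) and 39.3 per Mb, a density near that over all genes. They were led by the phosphodiesterase genes dnc with 7 and Pde11 with 5 and by puc, a phosphatase of the JNK pathway, with 3. The diacylglycerol kinase gene rdgA had none in 78.9 kb. ADD1 and XNP had only 686 and 154 bp of far intron sequence and hosted no far intron peak. The lists were chosen with earlier results of these data known and the genes within a list differ in length, so these values are descriptions.

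**Figure D4:**
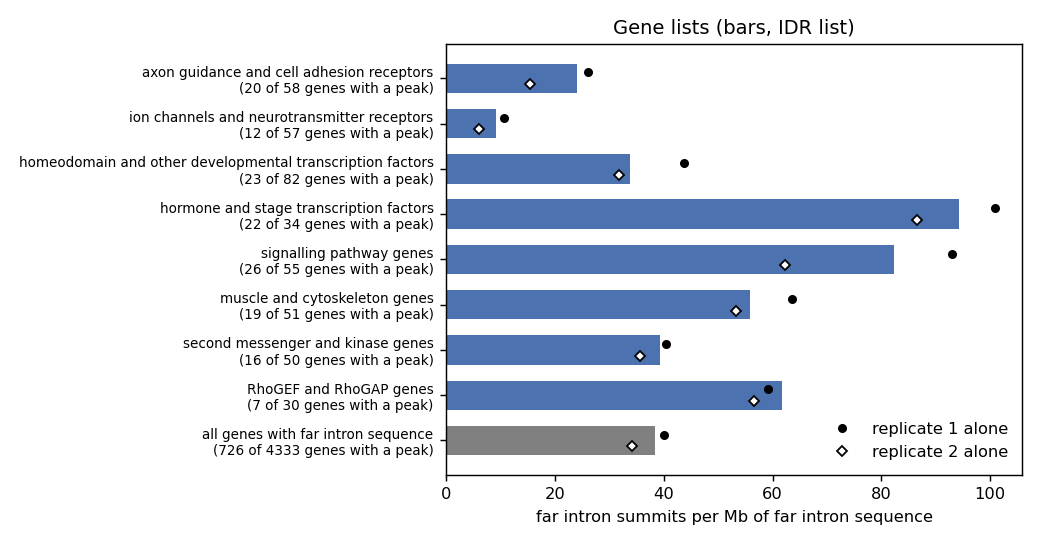
Far intron summits per Mb of far intron sequence (horizontal) for 8 gene lists and, in grey at the bottom, for all genes with such sequence; bars are the IDR list, circles replicate 1 alone and diamonds replicate 2 alone, and labels give hosts and genes with such sequence. Hormone and stage transcription factors (94.2) and signalling genes (82.4) have the longest bars and ion channels and receptors (9.07) the shortest, in an order that both replicates share for these 3 lists.

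The sequence around the summits was searched for 11 words bound by known factors, in both strands, within 100 bp of the summit and in windows of the same 201 bp centred 500 bp to each side. The test was a two-sided exact binomial test on the peaks with the word either in the centre alone or in the lower-coordinate window alone, with Benjamini-Hochberg adjustment over the 11 words. It treats peaks as independent, although all come from the same pair of libraries and 345 members had another within 1000 bp. The words were chosen with earlier results of these data known, so the p-values are no separate support. The word TGTTTAC, the core bound by forkhead family proteins, was in 158 members (10.04%, exact 95% interval 8.60 to 11.6) against 4.70% of the flanking windows and 4.07% of all 201 bp tiles of far intron sequence. It was in the centre only in 148 members and in that flank only in 60 (exact test, adjusted p = 1.00e-08). The share was 9.13% against 4.96% in the flanks in replicate 1, and 10.6% against 4.89% in replicate 2. The ratio of centre to flanks was 2.14 here and 1.35 in the joint list, where the word passed too. Close intron peaks had it in 9.10% and promoter peaks in 7.23%, with flanks of 5.74% and 5.23%.

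The repeat CACACACA was in 145 members (9.22%) against 6.36% of flanks and 5.20% of tiles (exact test, adjusted p = 0.0209). This call was lost within 50 bp of the summit (exact test, adjusted p = 0.867) and in the stronger part of the list (exact test, adjusted p = 0.996), and the adjusted p lay between 7.50e-13 and 0.0435 in the other alternatives. None of the other 9 words passed, and none of them had an unadjusted p under 0.05. The Su(Hw) word TGCATACTT was in 16 members (1.017%) against 0.318% of flanks (exact test, adjusted p = 0.192). It passed within 50 bp of the summit (exact test, adjusted p = 0.0406), without replicate 2 (exact test, adjusted p = 0.0239) and in the joint list (exact test, adjusted p = 1.85e-05), and in the other 3 alternatives the adjusted p of the exact test lay between 0.583 and 0.996. GAGAGAG, a word of GAGA factor, was in 5.21% of members against 4.74% of flanks, while 2.60% of tiles held it. The E-box CAGCTG was in 9.03% against 7.63% of flanks and 7.16% of tiles. The test set centres against flanks only, and differences from the tiles were not tested.

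Words of DREF, BEAF-32 and M1BP were rarer in far intron peaks than in promoter peaks. TATCGATA, a word of DREF and BEAF-32, was in 6 members (0.381%, exact 95% interval 0.140 to 0.828), against 0.413% of their flanks and 7.89% of promoter peaks (7.06 to 8.78). GGTCACACT, the M1BP word, was in 3 members (0.191%, 0.0393 to 0.556), against 0.0318% of their flanks and 5.25% of promoter peaks (4.573 to 5.999). Close intron peaks held each of these words in 0.425%. The word CAGGTAG of the early embryonic factor Zelda was in 1.46% of members against 1.14% of flanks.

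A search without a list gave words that the 11 do not cover. The words of 7 letters in at least 2% of the centres, each counted with its reverse complement, were ranked by the ratio of centre share to flank share on 2L, 2R and 3L, and the 5 highest were then read on X, 3R and 4, which had not chosen them. CAGTGTA, first on the choosing arms, was in 9.66% of the 725 members on the other arms (exact 95% interval 7.604 to 12.04) against 2.14% of flanks. CACTGAG was in 7.59% against 1.52%, GATACCC in 3.86% against 1.17%, CTGTGTA in 5.24% against 2.34% and ATAGGTG in 1.52% against 0.552%. Their shares of all far intron tiles were 1.96%, 1.80%, 1.30%, 2.01% and 1.10%. No test was made of these words.

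Over all arms CAGTGTA was in 132 far intron peaks (8.39%), in 9.50% of those of replicate 1 and 6.92% of those of replicate 2, against flanks of 1.88%. It was in 8.68% of intergenic peaks, 6.21% of close intron peaks and 3.59% of promoter peaks. The exact 95% intervals for far intron peaks (7.07 to 9.87) and intergenic peaks (7.01 to 10.6) overlapped. It was in 8.16% of members in first introns and 8.76% of those in other introns, and in 10.1% of the stronger members and 6.73% of the weaker. CAGTGTA, read as TACACTG, and CACTGAG overlap by 5 letters, and 34 members held both words. The joined word TACACTGAG was in 30 members (1.91%, exact 95% interval 1.29 to 2.71) against 0.159% of flanks, 0.184% of tiles and 0.307% of promoter peaks. Intergenic peaks held it in 1.90% and close intron peaks in 1.62%, so it was not particular to far intron peaks. The sites printed for Tlk, RhoGAP19D and REPTOR show CAGTGTA 1 time each, and CG34417 shows TACACTG and CACTGAG apart. The strongest sites shown with CTGTGTA and ATAGGTG were in Evi5, with signal 1690 (930 in replicate 1 and 759 in replicate 2), and in wts, the Hippo pathway kinase Warts, with 881 (505 and 378 in replicates 1 and 2). These follow-up values were chosen after the word had been seen. A match is a string of letters and names no factor.

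**Figure D5:**
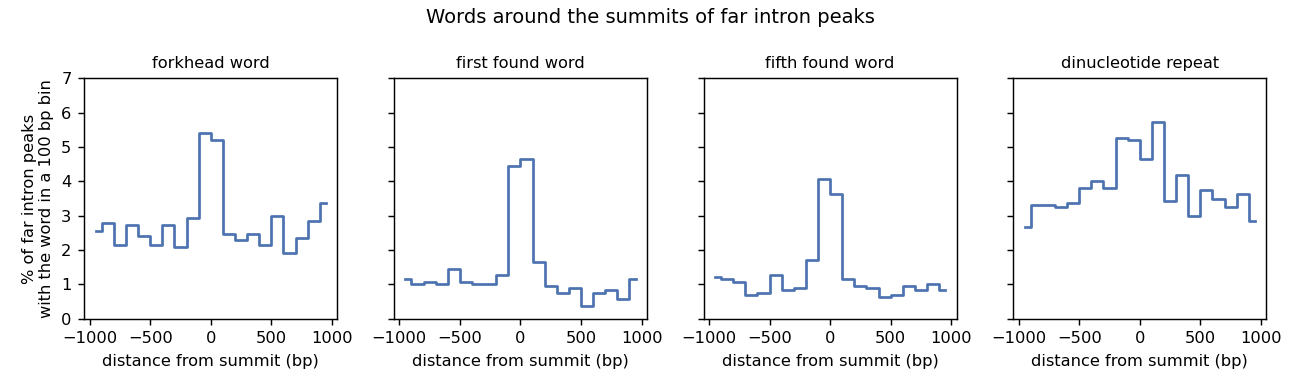
Share of the 1573 far intron peaks with a word in each 100 bp bin (vertical) by distance from the summit in bp (horizontal), for the forkhead word, the first and last of the 5 words found without a list (CAGTGTA, and CACTGAG, headed the fifth found word) and the repeat CACACACA; both strands count. The first 3 words rise in the 2 bins beside the summit, to 5.40%, 4.64% and 4.07% at their highest, and the repeat is broader.

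Base composition at the summits was close to that around them. The GC content within 100 bp of the summit was 41.5% ± 7.26 (SD over 1573 peaks), against 40.3% in the flanks and 40.3% over all far intron tiles.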

How the data were processed

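The deposited lists of ADD1-GFP peaks (1 per replicate, 1 joint, 1 IDR) are on dm6, per the file headers and labels. The authors' signal value per peak is on a scale not stated. The authors' −log10 q-value reached its highest value in 1243 of the 1573 members and was not used. Peak caller and aligner were not given in the sources used here. Depth is unknown. Summits were classed with genome Release 6 and FlyBase annotation 6.54 (Ensembl release 115). Its 5809 mobile elements on the 6 arms counted neither as genes nor as starts. Each replicate alone means its 7944 strongest peaks. Python 3.11.15, pandas 2.3.3, numpy 2.4.6, scipy 1.17.1 and matplotlib 3.10.9 were used, and classing and the word test were tested on simulated data. The only test is that of the words, at an adjusted p of 0.05. The peaks of 1 group allow no comparison between conditions, and the replicates' spread may be technical. Named genes are hosts of the 15 strongest members, the 15 hosts with the most members, up to 3 leading genes per list, the strongest member per arm, the peaks nearest to 2000 bp, ADD1 and XNP. Genes with no peak, the densest hosts and other genes shown for their sequence were named after their values were seen. The members, lists and words were chosen with earlier results of these data known. Alternatives were each replicate alone, the stronger 3972 peaks, the joint list of 30000, other distances, protein-coding starts, mobile element starts, matching within 50 bp, and, for words, 50 bp windows and summits outside soft-masked sequence.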

Additional observations from a re-analysis of the deposited data

How the results depend on the processing

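Over 8 results and 58 alternatives, 31 values moved by less than the spread between the replicates or, for counts of genes, stayed within 1.5 times the value reported. All 7 with mobile element starts, an alternative chosen after seeing the data, were among them. The spread was taken from the values of each replicate alone, which are also counted as alternatives. For those alternatives the comparison with the spread is no separate check. With the joint list the far intron share was 31.4%, its ratio to the share of sequence was 1.01, above 1 in place of 0.640, hosts numbered 1373, hosts with 2 or more peaks 1076, the median host length was 22779 bp, the signal ratio to promoter peaks 0.465 and the first intron share 57.2%. With the stronger part of the list the share was 16.0%, its ratio 0.516, hosts 415, those with 2 or more 141, the length 29034 bp and the signal ratio 0.880. Beyond 1000 bp the share was 27.9%, the ratio 0.770, the length 21363 bp and the first intron share 67.4%, with 1022 hosts and 486 with 2 or more. Beyond 5000 bp they were 10.2%, 0.481, 40936 bp and 53.3%, with 396 hosts and 200 with 2 or more. Leaving out a replicate gave signal ratios of 0.757 to 0.785, against 0.746, and first intron shares of 60.2% to 62.0%, against 61.5%. Both replicates held 83.3% of members within 50 bp and 65.4% among their strongest peaks. The cause of these moves was not tested. Of 65 word alternatives 57 kept their call. TGTTTAC passed in all 6, at ratios of 1.35 in the joint list to 2.75 within 50 bp. CACACACA fell to ratios of 1.14 within 50 bp and 1.14 in the stronger part. TGCATACTT passed within 50 bp (6.50), without replicate 2 (4) and in the joint list (2.27), where GGTCACACT (2.00), GAGAGAG (1.33) and CAGCTG (1.23) passed too. No paired analysis was possible because there is only 1 group. The depth is unknown, so the absence of a far intron peak in a gene says only that none reached the list.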

Other observations

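Several of the longest genes held no far intron peak of the IDR list. Myo81F, with 1929 kb of far intron sequence, Pzl with 699 kb, lovit with 426 kb, CG17684 with 387 kb and DIP-lambda with 369 kb had none, and none among the strongest peaks of either replicate. The joint list held 1 far intron peak in Myo81F and 2 in Pzl. Genes over 100 kb had 15.6 peaks per Mb of far intron sequence in the IDR list. Outside chromosome 4 and windows with 30% or more soft-masked sequence they had 25.2. The part of repeats and of read placement in the lack of peaks in Myo81F, Pzl, lovit, CG17684 and DIP-lambda was not tested. The gene bru3, which encodes a Bruno family RNA-binding protein, had none in 244 kb of such sequence in the IDR list and in either replicate, and 30 in the joint list. In kirre, with 288 kb, there were 16 in the IDR list and 102 in the joint list. Ten-a, which encodes a teneurin of synapse formation, had 3 in 212 kb, and pum, the translational repressor Pumilio, had 2 in 145 kb.

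The letters beside the most frequent of the found words were not even. In the 147 occurrences of TACACTG, read in that direction, within 100 bp of far intron summits, the letters at positions 12, 13 and 14, counted from 1 at its first T, were A in 66.7%, 70.7% and 65.3%. Before the word, from position -7 to 0, A was in 19.7% to 32.7%. The share of A over all far intron tiles, which had 40.3% GC, was not computed. A peak can hold more than 1 occurrence. The middle of the word lay a median of 61 bp from the summit, and 51 occurrences (34.7%) were within 50 bp. Only occurrences within 100 bp were read, and most of them lay in the outer part of that window. Within it the word was therefore not concentrated at the summit itself.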
